A study of Drosophila melanogaster with 2 samples.

Results

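Of 5828 Dp peaks from a ChIP-seq experiment on Drosophila melanogaster embryos, 353 lay between protein-coding genes and away from their starts. The authors derived this list of peaks from both replicates. A peak was taken when its summit, the position of its highest signal, was outside every protein-coding gene body and more than 500 bp from every annotated start of a protein-coding gene in the Ensembl annotation. These intergenic peaks were 6.06% of the list (95% exact binomial interval 5.46 to 6.70), while 5107 peaks had a summit within 500 bp of a start and 368 lay in a gene body farther than that from any start. The single group consisted of whole embryos of both sexes, aged 0 to 24 hours, from 1 transgenic line that expresses Dp with GFP joined to its C-terminal end, with 2 biological replicates numbered 1 and 3. All cell types and stages of embryogenesis were mixed, chromatin was sheared by sonication, and no comparison between conditions was possible. In the labels the antibody target is Dp, yet the same libraries are called input controls, a conflict within the labels. The descriptions deposited with the peak lists name a separate control, so the libraries were read as Dp ChIP.

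Dp is the obligate partner of the E2F transcription factors: an E2F and Dp bind DNA together as a dimer. With the retinoblastoma proteins, Myb and the MuvB proteins they form the fly DREAM complex (also called Myb-MuvB), which represses or activates cell cycle and developmental genes and was found in flies largely near gene starts. E2F dimers recognise a GC-rich core, MuvB contacts the cell cycle genes homology region (CHR), and many fly promoters of housekeeping genes carry the DNA replication-related element (DRE), bound by DREF. CTCF and Su(Hw) are insulator proteins, which separate neighbouring regulatory domains.

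The letters under 11 of the summits are shown because they carry the motifs counted in the results. Each is the plus strand of dm6, from the RefSeq genome, 100 bp to either side of a summit and 5′ to 3′. Capitals mark an E2F core, a CHR, a DRE, a CTCF core or the word TTGGCGG on either strand.
Upstream of Cipc (chr3R:26103512-26103712): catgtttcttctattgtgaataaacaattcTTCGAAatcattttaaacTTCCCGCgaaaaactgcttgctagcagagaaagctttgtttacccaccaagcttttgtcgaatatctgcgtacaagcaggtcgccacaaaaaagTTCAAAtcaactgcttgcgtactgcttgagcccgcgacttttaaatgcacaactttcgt
Upstream of CG3505 (chr3R:14656842-14657042): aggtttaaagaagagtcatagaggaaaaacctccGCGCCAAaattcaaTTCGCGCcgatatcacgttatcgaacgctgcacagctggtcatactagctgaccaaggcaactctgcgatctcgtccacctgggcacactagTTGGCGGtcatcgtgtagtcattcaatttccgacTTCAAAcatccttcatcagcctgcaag
Between E2f1 and InR (chr3R:21619836-21620036): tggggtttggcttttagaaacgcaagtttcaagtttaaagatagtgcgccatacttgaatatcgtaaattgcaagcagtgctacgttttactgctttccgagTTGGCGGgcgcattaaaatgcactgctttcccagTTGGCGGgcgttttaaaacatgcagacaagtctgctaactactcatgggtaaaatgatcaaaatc
Beyond the 3′ end of SmD1 (chr3L:12732844-12733044): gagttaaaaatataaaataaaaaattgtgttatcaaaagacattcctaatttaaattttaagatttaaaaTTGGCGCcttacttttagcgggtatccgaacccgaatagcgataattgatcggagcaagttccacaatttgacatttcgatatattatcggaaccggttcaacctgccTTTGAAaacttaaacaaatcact
Between RpL17 and CG3168 (chrX:6741136-6741336): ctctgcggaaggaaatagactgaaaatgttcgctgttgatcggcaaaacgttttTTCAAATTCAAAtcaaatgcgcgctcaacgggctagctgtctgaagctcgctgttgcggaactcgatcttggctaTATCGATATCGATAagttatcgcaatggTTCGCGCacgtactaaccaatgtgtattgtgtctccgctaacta
Beyond the 3′ end of Sid (chr3R:28672382-28672582): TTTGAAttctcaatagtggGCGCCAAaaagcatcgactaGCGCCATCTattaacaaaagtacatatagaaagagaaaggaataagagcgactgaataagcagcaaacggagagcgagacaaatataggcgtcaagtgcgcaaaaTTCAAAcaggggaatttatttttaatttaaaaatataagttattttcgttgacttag
Upstream of Reg-2 (chr3L:607070-607270): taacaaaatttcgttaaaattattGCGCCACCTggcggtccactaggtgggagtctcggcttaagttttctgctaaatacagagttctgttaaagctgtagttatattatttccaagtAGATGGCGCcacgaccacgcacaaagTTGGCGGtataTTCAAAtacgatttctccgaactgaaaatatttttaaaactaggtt
At snRNA:U5:63BC (chr3L:3090571-3090771): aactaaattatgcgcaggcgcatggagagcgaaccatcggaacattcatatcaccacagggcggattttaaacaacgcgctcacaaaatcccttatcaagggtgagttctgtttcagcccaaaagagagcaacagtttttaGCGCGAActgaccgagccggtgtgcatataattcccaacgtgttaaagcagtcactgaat
At tRNA:Ser-AGA-2-4 (chr2L:3173080-3173280): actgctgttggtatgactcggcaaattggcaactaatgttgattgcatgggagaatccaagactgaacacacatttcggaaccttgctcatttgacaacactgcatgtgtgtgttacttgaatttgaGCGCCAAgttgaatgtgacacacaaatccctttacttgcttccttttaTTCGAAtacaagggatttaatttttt
At mir-34 (chr3R:10100681-10100881): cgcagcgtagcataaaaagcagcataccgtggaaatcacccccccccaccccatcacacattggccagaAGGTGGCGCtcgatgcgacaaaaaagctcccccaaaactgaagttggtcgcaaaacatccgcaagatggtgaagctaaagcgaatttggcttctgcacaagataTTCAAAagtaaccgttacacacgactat
Near RpS3A (chr4:63396-63596): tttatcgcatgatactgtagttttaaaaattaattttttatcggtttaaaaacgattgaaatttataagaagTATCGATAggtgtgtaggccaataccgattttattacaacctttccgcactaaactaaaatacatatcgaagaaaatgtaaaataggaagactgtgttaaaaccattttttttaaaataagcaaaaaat
The windows at Cipc and CG3505 held E2F cores and CHRs, that between RpL17 and CG3168 held overlapping DREs beside both, and that at Reg-2 held a pair of CTCF cores. The CG3505 window also held the word TTGGCGG. The window between E2f1 and InR held none of the E2F cores searched, but TTGGCGG occurred there 2 and 36 bp to the right of the summit.

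The intergenic peaks covered nearly the whole range of signal in the list, 213 to 12685. Their pooled signal value, a deposited measure of peak strength whose scale is not stated, had a median of 585 (quartiles 313 and 1608, range 216 to 12685), beside 666 at starts and 360 in gene bodies. In replicate 1 the medians were 309 for the intergenic peaks and 363 for those at starts, and in replicate 3 they were 289 and 329. The difference from starts was -0.19 on the log2 scale in the pooled list, -0.23 in replicate 1 and -0.19 in replicate 3. With the strongest peaks of replicate 3 alone in place of the thresholded list it was -0.04, and with the strongest summit of each interval -0.31. Among the 2914 strongest thresholded peaks alone the difference was 0.28, with the intergenic peaks higher, so its size and sign depended on the list used. Of the 353 intergenic peaks 50 (14.2%, 10.7 to 18.2) ranked among the 582 strongest peaks of the list, while 10.1% of peaks at starts and 3.80% of gene-body peaks ranked that high.

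The list was thresholded on the match between the replicates, so their likeness at these peaks is in part a result of that selection. A relaxed peak of each replicate covered 350 of the 353 summits, and across them the replicate values had a rank correlation (Spearman) of 0.942 and, after log2 transformation, a Pearson r of 0.960, given as a description since these peaks share the libraries. Replicate 3 was lower than replicate 1 by a median of 0.17 on the log2 scale, with an SD of 0.44 over peaks, and 10 of the 350 peaks differed by more than 2-fold. The widest such gaps include a weak second summit beside SmD1, for which replicate 1 has only the value of its stronger neighbour. That kind of sharing with another thresholded summit touched 5 replicate 1 values and 4 replicate 3 values. Of the 353 peaks, 305 (86.4%) overlapped the 5828 strongest peaks of both replicates, against 93.8% at starts and 79.1% in gene bodies.

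**Figure D1:**
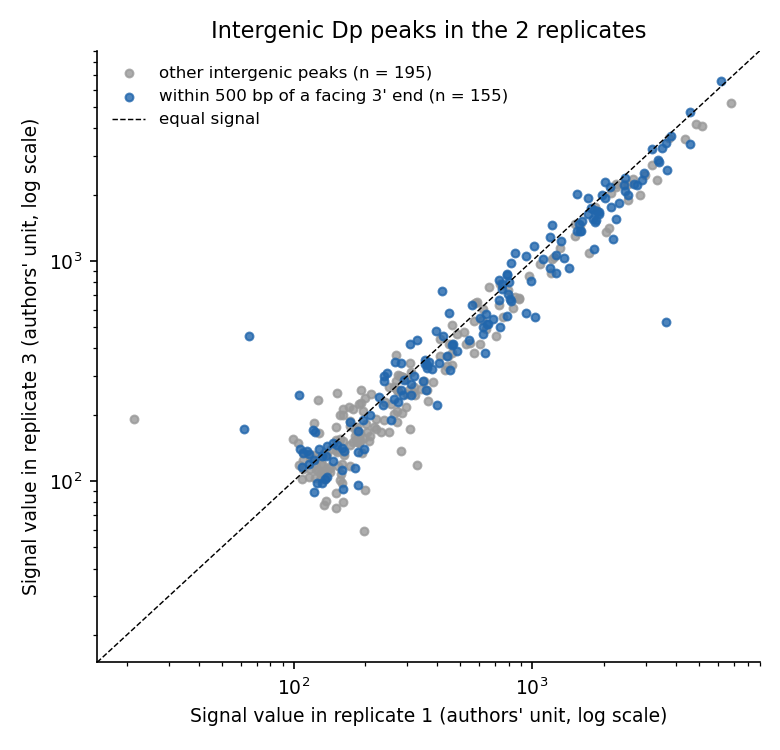
Signal value of each intergenic Dp peak in replicate 1 (x axis) and replicate 3 (y axis), both in the authors' unit on log scales, for the 350 peaks with a value in each replicate. Blue points are the 155 of these within 500 bp of a facing 3′ end of a protein-coding gene and grey points the other 195, and most points lie near the dashed line of equal signal.

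Among the sequence that could have qualified, the stretch just beyond the 3′ ends of genes had the most peaks per Mb. Of the 353 peaks, 157 (44.5%, 39.2 to 49.8) were within 500 bp of the 3′ end of the nearest gene body, a stretch that held only 4.93% of the intergenic sequence that could have qualified. The density was 79.3 peaks per Mb there and 5.14 per Mb in the rest of that sequence. It was 99.2 per Mb in the first 250 bp outside the gene and 52.7 in the next 250 bp, then 13.6 between 501 and 750 bp and 21.2, from 14 peaks, in the 250 bp after that. On the other side of the same ends, inside the gene, 25 peaks in the last 250 bp gave 10.03 per Mb. Sequence within 500 bp of any start was left out on both sides of the annotated end.

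**Figure D2:**
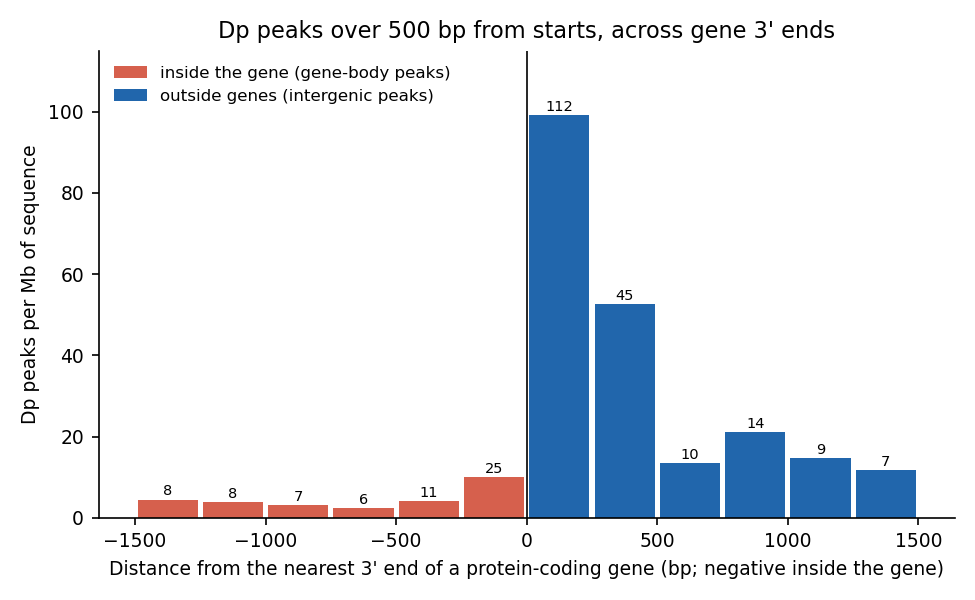
Dp peaks per Mb of sequence (y axis) by distance in bp from the nearest 3′ end of a protein-coding gene (x axis, negative inside the gene), counting only sequence more than 500 bp from every protein-coding start. Numbers above the bars are peaks, and the bar just outside the gene, with 112 peaks, is the tallest at 99.2 per Mb, against 10.03 per Mb just inside.

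Sequence near gene ends is a larger part of short gaps than of long ones, so the density was also taken within gaps of like length. In gaps of up to 2000 bp it was 106 per Mb within 500 bp of a facing 3′ end and 52.2 elsewhere. In gaps of 2001 to 5000 bp the values were 67.0 and 17.5, and in gaps of 5001 to 20000 bp they were 54.4 and 7.33. Gaps longer than 20000 bp held 15 peaks near 3′ ends, at 61.1 per Mb, and 60 peaks elsewhere, at 2.59 per Mb. The higher density near 3′ ends was therefore present at each of these gap lengths. All sequence elsewhere was more than 500 bp from any gene body. These values thus cannot separate closeness to a 3′ end from closeness to a gene, since no sequence within 500 bp of a facing 5′ end qualified. From 501 to 5000 bp the side of facing 5′ ends was the denser. At 501 to 1000 bp it had 29.97 per Mb, against 17.36 on the side of facing 3′ ends. At 1001 to 2000 bp the values were 12.16 and 8.52, and at 2001 to 5000 bp 5.999 and 2.851. Beyond 5000 bp the order was reversed, with 1.801 and 2.069. Whether chromatin accessibility or how well reads map differs around gene ends was not tested, since only peak lists were at hand.

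The peaks near 3′ ends were also the stronger ones. Their median signal was 1099, against 414 for the other 196, and the medians were 624 and 222 in replicate 1 and 516 and 207 in replicate 3. Of the 50 intergenic peaks among the 582 strongest of the list, 32 were near a 3′ end. By orientation of the flanking genes, 66 of the 157 lay between convergent genes, which face each other with their 3′ ends, and 90 between genes in tandem. Over all 353 peaks orientation alone showed little: 22.9% were in divergent, 51.8% in tandem and 24.9% in convergent gaps, beside 23.7%, 49.8% and 21.8% of the qualifying sequence.

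Most of the strongest intergenic peaks had this position. In the convergent gap between CG13577 and CG3376, on arm 2R, a peak of signal 9293 (4591 in replicate 1, 4748 in replicate 3) was 138 bp beyond the end of CG3376. Beyond brp, which encodes the Bruchpilot protein of synaptic active zones, a peak of 7487 (3828 and 3695) was 178 bp from the 3′ end. The peak between mirr and SmD1, a core spliceosomal protein gene, had 7048 (3648 and 3425) at 420 bp from the end of SmD1. These 3 peaks were more than 1500 bp from any coding start, and each was called at similar strength in both replicates.

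Other strong peaks beyond gene ends had a wide mix of neighbours. A peak of 6752 (3519 and 3262) was 103 bp beyond Indy, a citrate transporter gene, with the catalase gene Cat as the nearest start. Beyond tara, which encodes a SERTA domain protein, the value was 6349 (3195 and 3205) at 225 bp, and beyond DnaJ-1, an Hsp40 chaperone gene, it was 6209 (3370 and 2873) at 204 bp. Sid had a peak of 6234 (3674 and 2585) at 461 bp from its end and Ance-4 one of 6201 (3417 and 2813) at 123 bp. Replicate 1 exceeded replicate 3 at each of these except tara, where the replicates differed by less than in the others. By median, replicate 1 was also the higher over all intergenic peaks.

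The peak in the tandem gap between E2f1 and InR joined a gene of the E2F family to the insulin-like receptor gene. Its signal was 7937 (4585 in replicate 1, 3405 in replicate 3), with the summit 368 bp beyond the 3′ end of E2f1 and 615 bp upstream of the nearest InR start. Position alone does not show which of these genes, if either, the bound Dp acts on, and the same holds for every nearest gene named here.

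Another set of strong peaks lay upstream of starts, in divergent gaps. The second-ranked intergenic peak, on arm 2R, had a signal of 11972 (6793 and 5229) and lay 3395 bp upstream of slbo, the C/EBP transcription factor gene of border cell migration, in the gap shared with bs, which encodes the fly serum response factor. Upstream of Cipc, a peak of 9216 (5164 and 4086) was 3256 bp from the start. NijA, a Ninjurin cell surface protein gene, had one of 7916 (4373 and 3582) at 1421 bp. At the slbo, Cipc and NijA peaks, replicate 1 was higher than replicate 3, as it was by median over all intergenic peaks.

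Some of the strongest were only just outside the limit of 500 bp. The peak upstream of CG3505 had 9006 (4882 and 4204) at 505 bp, and that upstream of Glyp, the glycogen phosphorylase gene, 7337 (3742 and 3629) at 586 bp. The member nearest the limit was at 502 bp from sff with a signal of 1783, followed by 4 at 504 bp, from CheB93a with 4279, CG13970 with 1309, Arpc3B with 943 and PolQ with 242. Just outside the set were summits at 499 bp from Dgat2 with 4205, at 499 bp from CG43066 with 7941 and at 496 bp from ASPP with 2190. Distances to the nearest coding start otherwise ran from 502 to 43443 bp with a median of 2046.

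Distance from the nearest start had little bearing on strength until it was large. Median signals were 606 for the 88 peaks at 501 to 1000 bp, 611 for the 87 at 1001 to 2000 bp, 580 for the 89 at 2001 to 5000 bp and 582 for the 55 at 5001 to 10000 bp. The 34 peaks farther than 10000 bp had a median of 404. One of these 34, upstream of CG10651, still reached 5643 (3331 in replicate 1, 2330 in replicate 3) at 13588 bp from the start.

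Either strand was searched for motifs in the 100 bp to each side of a summit, and a match is a description of the letters there, not a shown binding site. The CHR, taken as TTCGAA or TTTGAA, was present at 215 of the 353 summits (60.9%, 55.6 to 66.0), against 34.3% and 33.4% of windows centred 500 bp to the left and right. It was present in 27.7% of all 193828 qualifying intergenic windows of the same length, at 48.8% of summits at starts and at 44.3% of summits in gene bodies. An E2F core, taken as TTCCCGC or TTCGCGC or TTGCCGC or TTGGCGC, was present at 70 summits (19.8%, 15.8 to 24.4), against 7.08% and 6.52% of the flanking windows and 8.28% of all qualifying windows. At starts the E2F core had a share of 18.2%, inside the interval of the intergenic share, and in gene bodies away from starts one of 27.7% (23.2 to 32.6), above it. The related word TTGGCGG, which was added after the windows above had been read, was present at 27 summits (7.65%, 5.10 to 10.9). It was in 1.98% and 3.12% of the flanking windows and 2.14% of all qualifying windows. Its shares at starts, 5.84%, and in gene bodies, 7.07%, were inside the interval of the intergenic share.

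Promoter words were rarer here than at starts. The DRE, TATCGATA, which contains the CGATA also counted alone, was present at 24 intergenic summits (6.80%, 4.404 to 9.95) and at 15.7% of summits at starts, with 0.442% of all qualifying windows. CGATA itself was at 35.7% of intergenic summits and 53.6% of summits at starts, and in 20.0% of all qualifying windows. Core promoter motif 1 was at 5 intergenic summits (1.42%), at 7.87% of summits at starts and in 0.032% of all qualifying windows. The lower shares than at starts were not particular to intergenic peaks. Gene-body summits away from starts had 5.71% for the DRE, 30.4% for CGATA and 0.543% for core promoter motif 1. The DRE-bearing peak between RpL17 and CG3168, shown above, had a signal of 4514 (2448 in replicate 1, 2072 in replicate 3) at 301 bp beyond the ribosomal protein gene RpL17.

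Insulator words went the other way. A CTCF core, AGGTGGCGC or AGATGGCGC, was present at 46 of the 353 summits (13.0%, 9.70 to 17.0), against 1.33% of summits at starts (1.04 to 1.68). The flanking windows held it in 0.850% and 0.283% and all qualifying windows in 0.228%. It was not particular to intergenic peaks, since 9.24% of gene-body peaks away from starts (6.48 to 12.7) had it too. The Su(Hw) core GCATACTT was at 16 intergenic summits (4.53%, 2.61 to 7.26), at 0.803% of summits at starts, at 4.08% of gene-body summits (2.30 to 6.63) and in 0.969% of all qualifying windows. The CTCF core and the E2F core TTGGCGC share their last 6 letters but cannot use the same ones on the same strand; on opposite strands they can overlap.

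**Figure D3:**
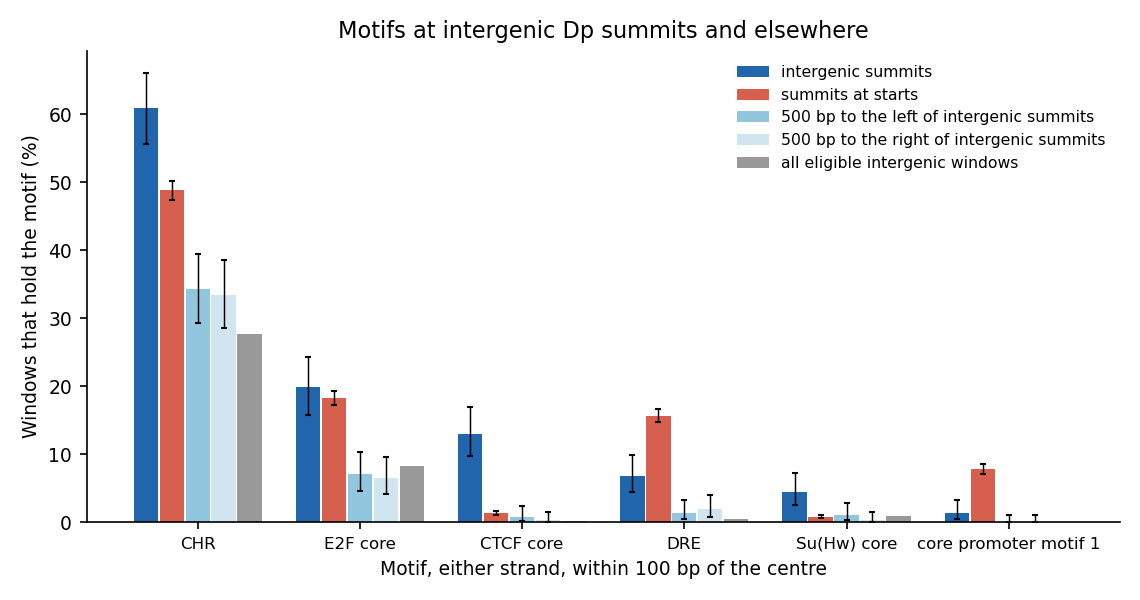
Share of 201 bp windows (y axis, %) with each of 6 motifs (x axis) at intergenic summits, at summits near starts, in windows centred 500 bp to the left and right of intergenic summits and in all qualifying intergenic windows; error bars are 95% exact binomial intervals. The CTCF core stands at 13.0% at intergenic summits and 1.33% at starts, and the DRE at 6.80% and 15.7%.

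The motifs differed in how they followed strength. Among the strongest 117 intergenic peaks, with signals from 1174 upward, 80.3% had a CHR and 33.3% an E2F core. In the middle 118 the shares were 61.9% and 11.9%, and in the weakest 118 they were 40.7% and 14.4%. The CTCF core had a nearly level share, 12.0%, 14.4% and 12.7% in the same order. Summits with an E2F core had a median signal of 1968 against 540 without, and those with both an E2F core and a CHR, 42 in number, had 2762. Peaks with a CTCF core had a median of 578 and those without it 595. A further 69 peaks had none of the E2F core, CHR, DRE, CGATA or core promoter motif 1, and their median was 304.

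**Figure D4:**
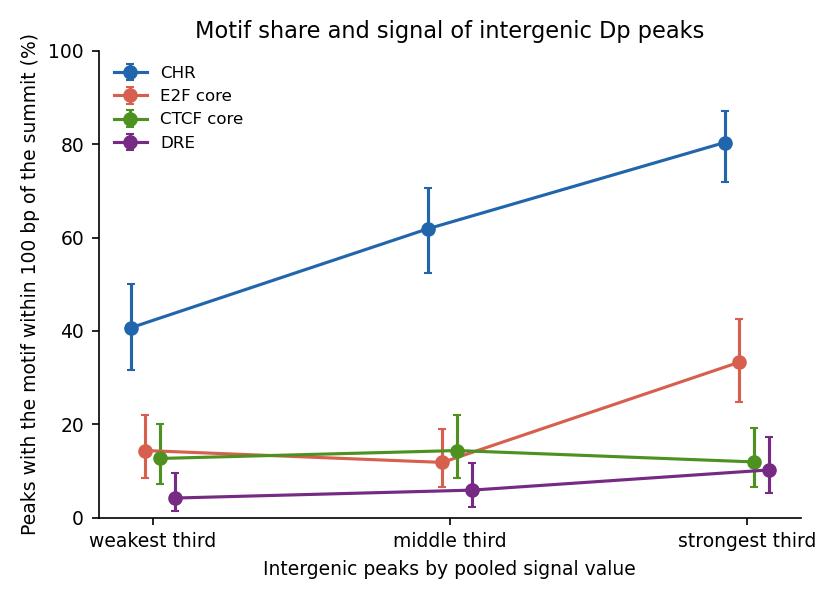
Share of intergenic Dp peaks with a motif within 100 bp of the summit (y axis, %) in 3 groups by pooled signal value (x axis: the weakest 118, middle 118 and strongest 117), with 95% exact binomial intervals. CHR shares run from 40.7% to 80.3%, E2F core shares are 14.4%, 11.9% and 33.3%, and CTCF core shares stay between 12.0% and 14.4%.

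Peaks with a CTCF core were placed differently from the rest. Only 12 of the 46 (26.1%, 14.3 to 41.1) were within 500 bp of a facing 3′ end, against 47.2% (41.5 to 53.0) of the 307 without it. Divergent gaps held 21 of the 46 (45.7%, 30.9 to 61.0) and 19.5% of the others, and convergent gaps held 3 (6.52%) and 27.7%. The log2 difference between replicates had an SD of 0.29 among them and 0.46 in the others. Over all intergenic peaks that difference ran from -2.79 to 3.16. A few such extremes can raise an SD, so closer agreement of the replicates at CTCF core peaks was not shown. Their E2F core share was 23.9% and their CHR share 56.5%, and both intervals held the share of the peaks without a CTCF core, 19.2% and 61.6%.

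Named peaks with a CTCF core included some of the strongest. The slbo peak and the Sid peak described above both had one. The peak 601 bp upstream of Reg-2 had a signal of 4399 (2257 in replicate 1, 2154 in replicate 3), and that 544 bp upstream of CG10232 had 4453 (2243 and 2229). A peak beyond Gr89a, a gustatory receptor gene, had 4624 (2434 and 2204) at 308 bp from its 3′ end. In each of these 3, replicate 1 and replicate 3 differed by less than the SD between replicates over all intergenic peaks.

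A noncoding gene was at hand for 54 of the 353 peaks (15.3%, 11.7 to 19.5), either with a start within 500 bp of the summit, for 44, or with only its body over the summit, for 10. Noncoding gene bodies covered 9.17% of the qualifying sequence, a narrower measure than the rule for peaks. Transposable elements covered 9 summits (2.55%) and 10.5% of the sequence, and 291 peaks had neither. Peaks at noncoding genes had a median signal of 579, close to the 585 of those with neither kind. By class, 34 were at other noncoding RNAs (2498 genes), mostly long ones, 7 at antisense RNAs (503 genes) and 7 at pseudogenes (268). There were 4 at snoRNAs (269 genes), 3 at snRNAs (32), 3 at tRNAs (290), 1 at a microRNA (260) and 0 at rRNA genes (99). Some summits were counted in more than 1 class. Most genes of each class thus had no intergenic peak.

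A few genes of the splicing and translation machinery were among the noncoding genes with a peak. The peak at snRNA:U5:63BC, a gene for the U5 RNA of the spliceosome, had a signal of 3903 (1966 in replicate 1, 1992 in replicate 3) at 130 bp from its start. The peaks at snRNA:U6:96Ab and snRNA:U6:96Ac shared 1 summit of 304 (152 and 145), and that at snRNA:U1:95Ca had 264 (137 and 130) at 29 bp. The word AATTCCCAA, taken for the PSEA element of snRNA promoters, was at 6 intergenic summits (1.70%, 0.626 to 3.66). Of these, 3 were at a noncoding gene, with U5:63BC and U1:95Ca included. The word was at 0.411% of summits at starts and in 0.384% of all qualifying windows. Flanking windows held it in 0.850% to the left, inside the interval of the summits, and 0% to the right. At tRNA:Ser-AGA-2-4 the signal was 3615 (1707 and 1931), 96 bp from the nearest noncoding start, with a pseudogene, CR44003, in the same place. Weaker peaks lay at tRNA:Leu-CAG-1-1, with 735 (309 and 421), and at tRNA:Ala-TGC-2-1, with 516 (252 and 268).

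Small nucleolar RNAs, which guide chemical changes of ribosomal and other RNAs, were met through their hosts and alone. Uhg3, a host gene of snoRNAs, had a peak of 981 (543 in replicate 1, 437 in replicate 3) at 60 bp from the nearest noncoding start, and Uhg4 one of 952 (529 and 421) at 48 bp. At snoRNA:Or-CD4 the value was 1553 (884 and 681), though 454 bp away, and at snoRNA:Me18S-A1806 it was 361 (172 and 186) at 43 bp. The peak at mir-34, a microRNA gene, had 456 (211 and 248), 155 bp from the nearest noncoding start, and a CTCF core in its window.

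Long noncoding RNAs with known roles had weak to moderate peaks. The roX genes encode the RNAs that help the dosage compensation complex coat the male X chromosome. The peak at roX2 had 537 (240 in replicate 1, 299 in replicate 3) with its summit 24 bp from the start, and that at roX1 had 256 (132 and 130) at 56 bp. Hsromega, a heat-inducible RNA of nuclear speckles, had summits of 1226 (586 and 652) and 460 (192 and 259) in a single peak interval. The lncRNA iab8 of the bithorax complex had a summit of 1021 (604 and 419) inside its body, 14991 bp from the nearest start of the Hox gene Abd-B, with a CTCF core, an E2F core and a CHR in the window. At the Vinr lncRNA the value was 750 (432 and 321). Replicate 3 was the higher at roX2 and at both Hsromega summits and replicate 1 at iab8 and Vinr.

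Unnamed noncoding genes, those with only a CR number, also had strong peaks. A peak of 4951 (2764 in replicate 1, 2210 in replicate 3) at the lncRNA CR45433 had its summit inside a copy of the Rt1b transposable element. The pseudogene CR43158 had 4817 (2836 and 1994), the antisense RNA CR44179 had 3515 (1819 and 1710), and the lncRNA CR42657, in the gap between nej, the CREB-binding protein gene, and btd, had 3039 (1594 and 1462). Behind CR44179 among antisense RNAs came CR43469, with 2936 (1587 and 1360), and CR45806, with 2448 (1190 and 1282). Behind CR42657 among other noncoding RNAs came CR42721, with 2809 (1732 and 1084) in the gap between Ama and the Hox gene Dfd. Among pseudogenes CR43158 was followed by CR44003, at the tRNA peak named above, and by CR31032, with 413 (209 and 200).

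**Figure D5:**
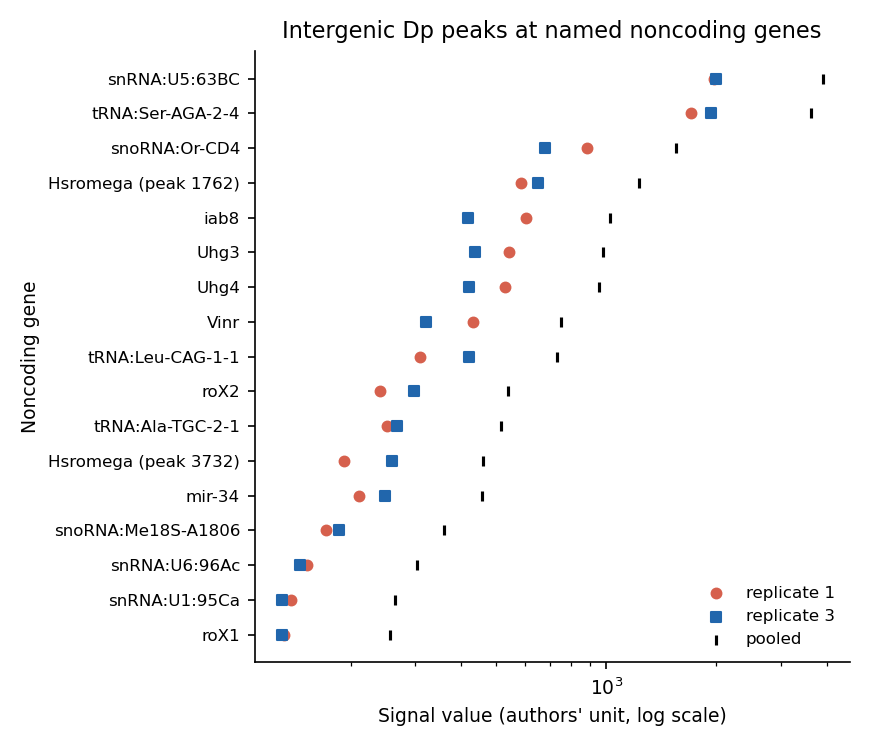
Signal value (x axis, authors' unit, log scale) of the intergenic Dp peaks at named noncoding genes (y axis) in replicate 1 (circles), replicate 3 (squares) and the pooled list (bars). U5:63BC and tRNA:Ser-AGA-2-4 have the highest pooled values, 3903 and 3615, and roX1 the lowest, 256.

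Gene lists held few nearest genes, as did the genome: 2.25% of 13945 protein-coding genes were the nearest gene of an intergenic peak. Of 38 DNA replication genes 1 was, Gnf1, the gene for the large subunit of the clamp loader, with a peak of 435 (283 in replicate 1, 137 in replicate 3), 656 bp upstream. Of 44 mitosis genes 1 was, CycB, the Cyclin B gene, with 400 (222 and 172), 550 bp beyond its 3′ end. Both counts are near the share over all genes, and they cover intergenic peaks only. Peaks at starts had 35 of the 38 replication genes and 40 of the 44 mitosis genes as nearest genes. Over all protein-coding genes that share was 32.2%. Of 15 E2F, Rb and DREAM genes 2 were nearest genes of an intergenic peak, and 13 were nearest genes of a peak at a start. Cdk4, whose product phosphorylates the retinoblastoma proteins, had an intergenic peak of 4611 (2430 and 2223) at 682 bp upstream. E2f2, the repressor E2F gene, had one of 506 (238 and 283) at 232 bp beyond its 3′ end. The gap of E2f2 also held the peak of del, the Deadlock gene of piRNA cluster transcription, with 2432 (1309 and 1139), 639 bp upstream. A peak of 4132 (2317 and 1834) was 136 bp beyond the 3′ end of stg, the Cdc25 phosphatase gene, though a start of SP1029 was nearer.

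Developmental genes had peaks of widely different strength. Of 45 patterning factors 3 were nearest genes: Abd-B (described above), bap and slp2. The last pair had 571 (318 in replicate 1, 253 in replicate 3) and 292 (150 and 138). Of 18 muscle genes 2 were, bap again and zfh1, a zinc finger and homeodomain gene, with 1906 (947 and 1048). That summit was 6173 bp downstream of a zfh1 start but only 194 bp beyond the 3′ end of wts. Of 34 signalling genes 1 was, Wnt4, with 261 (159 and 108). Of 14 hormone and border cell genes 1 was, slbo. It had the peak described above and a second, weak one of 278 (144 and 140), 4539 bp downstream of a slbo start. The list of 26 neuronal genes and the list of 15 promoter, insulator and pioneer factors gave none.

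Most peaks were alone in their gap. They fell in 309 gaps between coding genes and had 314 different nearest genes, and 6 gaps held 3 or more. The gap of 121064 bp between CG10651 and CG17571 held 4, from 289 to 5643. With 3 each, the gap between Su(z)2, a Polycomb group gene, and CG13323 ranged from 240 to 2216, and that between bin, a forkhead gene of visceral muscle, and Mp from 348 to 879. Lower values filled the others, 290 to 486 between dati and lgs, 275 to 484 between Hacd1 and Rh5, and 256 to 416 between RFeSP and chinmo.

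Chromosome 4, the small and largely heterochromatic autosome, had a high share. Of its 24 thresholded peaks 11 were intergenic (45.8%, 25.6 to 67.2), against 4.93% to 7.31% on each of the other arms. The density was 36.9 peaks per Mb of qualifying sequence, against 7.39 to 10.5 on the other arms. None of the 11 was within 500 bp of a facing 3′ end, and 2 lay in transposable elements. Their median signal was 359, with 178 in replicate 1 and 166 in replicate 3, below the 585 of all intergenic peaks.

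The strongest on chromosome 4 was near the ribosomal protein gene RpS3A, with 878 (463 in replicate 1, 418 in replicate 3), and had a DRE in its window. Sox102F, a Sox factor gene, was the nearest gene of 3, with 785 (460 and 335), 246 (142 and 109) and 241 (118 and 127). The Pax6 gene ey had one of 366 (210 and 160), 792 bp upstream and also with a DRE, fuss one of 392 (178 and 212) and zfh2 one of 244 (137 and 112). Ekar, a glutamate receptor gene, had one of 279 (154 and 117) inside a mariner2 element. The gap between dati and lgs held the other 3, with 486 (284 and 203), 359 (184 and 167) and 290 (128 and 166). None of the 11 reached the 582 strongest peaks of the list.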

How the data were processed

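The 2 biological replicates of 1 group were used, per the labels. The authors deposited, on dm6 per the file headers and labels, a relaxed list of 30000 peaks for each replicate, a pooled relaxed list and an IDR-thresholded list of 5828 peaks, all called against the same control. The sources used here name neither aligner nor peak caller, and read depth is unknown. The signal value of each peak, as deposited by the authors, has no stated scale, so it serves only to order and describe peaks of the same list. Values of the 2 replicates are set side by side as description only. The −log10 q, also deposited, is the same, 4.30, for every thresholded peak and so played no part. Summits came from the offset the authors deposited, an unscaled (other) number of bases from the peak start.

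Genes came from Ensembl release 115, and a replicate's value was that of its relaxed peak over the summit. The qualifying sequence, 40144681 bases on 6 arms, is all sequence outside coding genes and over 500 bp from their starts. Distances to a 3′ end were taken to the nearer gene body. Motifs, 16 in all, were searched in windows of 201 bp; 10 gene lists were matched by symbol. Shares carry exact (Clopper-Pearson) intervals at 95%, which cover counting error only and treat peaks as independent, though peaks in 1 gap or interval are not. With 1 group no test was made. Named peaks were the strongest 15, the strongest 3 at each kind of noncoding gene with every named one, gaps with 3 or more, the strongest 2 per list, those nearest the 500 bp limit and all on chromosome 4; 1 of the strongest 15 is not reported here. Members, gene lists and motifs were chosen with earlier results of these data known. Alternatives are listed in the closing section. Motif search and peak classes were checked on simulated data. Python 3.11.15, numpy 2.4.6, pandas 2.3.3, scipy 1.17.1 and matplotlib 3.10.9 were used.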

Additional observations from a re-analysis of the deposited data

How the results depend on the processing

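Of 131 recomputed values, 100 stayed within the error of the value reported (for a count, a distance or the masked share, within 1.5 times; for a signal difference, within the SD of 0.44 between replicates of single peaks, a wide margin that let it run from -0.31 to -0.04; for a share, inside its interval). The other 31 moved, and the cause was not tested. With the start limit at 250 bp the set held 634 peaks (10.9% of the list), a median distance of 633.5 bp, 9.46% with a CTCF core and 38.2% near a 3′ end, with 13.9% in convergent and 30.3% in divergent gaps. At 1000 bp it was 4.55% of the list, with a median of 3208 bp, 31.7% convergent and 17.0% divergent, and at 2000 bp 178 peaks (3.05%), 4957 bp, 32.6% and 16.3%. Among the 2914 strongest peaks 163 were intergenic, with a log2 signal difference from starts of 0.28 against -0.19, an E2F core in 29.4%, a CHR in 77.9%, a DRE in 10.4%, 60.7% near a 3′ end and 15.95% in divergent gaps. One summit per interval gave 6.70% of the list. Windows of 50 bp to either side gave 12.5% with an E2F core, 32.0% with a CHR and 4.25% with a DRE, and 250 bp gave 28.0% and 84.7% for the E2F core and CHR. A noncoding start within 1000 bp raised that share to 19.8%, and replicate lists cut to 2914 peaks lowered the share in both to 48.2%. With a single replicate's strongest peaks in place of the thresholded list there were 328 to 350 intergenic peaks, 43.1% to 48.2% near a 3′ end and 12.5% to 13.1% with a CTCF core. The RefSeq annotation gave 357, all 353 among them. The 3′ end and CTCF shares were added as results after the data were seen. No paired analysis was possible because there is 1 group. Read depth is unknown, so weak peaks cannot be told from missing ones in 1 replicate.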

Other observations

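Among motifs outside the groups above, the Myb site, the GAGA factor word and the E-box were at shares close to those of all qualifying windows. A Myb site was at 29.5% of intergenic summits and in 27.6% of all qualifying windows, the GAGA factor word GAGAGAG at 2.83% and 2.23%, and the E-box CACGTG at 1.98% and 2.24%. The AP-1 words were at 0 of the 353 summits, with an upper exact bound of 1.04%, below the 1.48% of all qualifying windows. The Grainyhead word AACCGGTT was at 6 summits (1.70%, 0.626 to 3.66) and at 0.509% of summits at starts. Its interval lay above the 0.124% of all qualifying windows and the 0.283% of windows centred 500 bp to the right. The 0.850% of windows centred 500 bp to the left was inside that interval.

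The bithorax complex, the Hox cluster of Ubx, abd-A and Abd-B, held other weak intergenic peaks. A pair of neighbouring summits between Glut3 and abd-A had signals of 392 (152 in replicate 1, 252 in replicate 3) and 326 (193 and 134), and the second had a Su(Hw) core, an E2F core and a CHR in its window. A peak of 250.7 (161 and 91.9) was 339 bp beyond the 3′ end of Ubx.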
